A study of Mus musculus with 31 samples.

Results

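Immediate early genes were followed as the rows of 10 genes, of 55492 rows in the table of gene counts, across all 8 groups of a study of sorted mouse blood stem cells. The 10 were chosen by name: Fos, Fosb, Jun, Junb, Jund, Egr1, Ier2, Dusp1, Klf6 and Nr4a1. The cells sequenced were LT-HSCs (long-term haematopoietic stem cells), taken from bone marrow as lineage-negative, Sca1-positive, cKit-positive, CD150-positive and CD48-negative. The donor marrow had the genotype SclCre;FF1;GFP, called VF, or SclCre;FF1;Dnmt3Δ/Δ;GFP, called VFDM. Both carry a transgene for mutant human JAK2-V617F, a kinase allele that drives myeloproliferative neoplasm, with Cre recombinase under the Scl promoter and a GFP reporter, and VFDM also carries a deletion of the DNA methyltransferase gene Dnmt3a. Donor cells were transplanted into wild-type mice together with a 10-fold excess of wild-type marrow, and treatment began 4 weeks later. Recipients received vehicle, pegylated interferon alpha at 25 µg/kg weekly (IFN), 5-azacytidine at 2 mg/kg daily (AZA) or both drugs (COMBO) for 8 weeks. Each group had 4 libraries, except that VFDM COMBO had 3, which makes 31 libraries in all. The sources used here do not say that the sort was gated on GFP, so wild-type stem cells may be among the cells sequenced, and every group, vehicle included, carries the JAK2 transgene in its donor marrow.

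Immediate early genes are switched on within minutes of a stimulus, without new protein synthesis, when kinases of the MAP kinase cascades act on factors such as SRF, the ternary complex factors and CREB that already sit at their promoters. Their messages and proteins are short-lived, so their level reflects the recent signalling state of the cell, and tissue dissociation and sorting can induce them. In stem cells, members such as Egr1, Junb, Nr4a1 and Fos have been linked to quiescence and to the control of proliferation.

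Depth ranged from 17782394 to 73910928 counts per library, and 17087 to 28851 rows had at least 1 count. The 8 libraries with fewer than 20000 detected rows were VF AZA 2 and 3, VF COMBO 1, 2 and 3, VFDM AZA 3 and 4, and VFDM COMBO 3. The libraries VF vehicle 1, 2 and 4 stand apart: small RNA genes took 22.3%, 24.9% and 37.5% of their counts, against 5.02% to 10.5% elsewhere, and mitochondrial genes 1.82% and 0.859% in replicates 1 and 4, against 6.28% to 11.8% elsewhere. Results against VF vehicle are therefore also given without these 3, where VF vehicle 3 is the only vehicle library and is assumed to vary like the other groups. Dnmt3a was measured at 104 to 297 CPM (counts relative to the scaled library total) in VF libraries and at 23.0 to 162 CPM in VFDM libraries. The library labelled VFDM IFN 3 held the 162 CPM, against 102 to 111 CPM in the other VFDM IFN libraries, so it goes against its label as far as counts over the whole gene, deleted part or not, can show, and results for that group are given with and without it. VF COMBO 3 held the 104 CPM, against 140 to 193 CPM in the other VF COMBO libraries. It lay below all VFDM vehicle libraries, at 109 to 120 CPM, so Dnmt3a counts of the genotypes overlapped from both sides. Of 11 LT-HSC markers, Kit stood at 459 to 891 CPM and Hlf at 32.8 to 505 CPM. Others were low or missing in some libraries. Procr ran from 0.0315 to 43.1 CPM and Ly6a from 9.64 to 63.1 CPM, while Fgd5 had no count in 1 library and Hoxb5 in 2. Transcripts of the sort-excluded Cd48 stood at 2.01 to 22.8 CPM. The labels do not say whether the libraries of a group come from separate animals, so every p-value refers to the variation among these libraries, which may be technical. In bulk libraries, fewer cells that express a gene and less RNA per cell cannot be told apart.

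The promoters are shown first because the classical immediate early response runs through short elements just upstream of the start site. RefSeq windows of 250 bases before the RefSeq gene start (build GRCm38.p6) matched 8 of the 10 genes, and Ier2 and Egr1 are named only. The windows of Fos, Jun and Junb, and the first 200 bases of that of Dusp1, read 5′ to 3′ on the gene's own strand, with capitals marking matches to a CArG box, the CRE TGACGTCA, its half-site TGACG, the AP-1 site TGANTCA or the TATA box TATAAA. They lie at chr12:85473640-85473889 (plus strand) for Fos, chr4:95052223-95052472 (minus) for Jun, chr8:84978749-84978998 (minus) for Junb and chr17:26508523-26508722 (minus) for Dusp1. The RefSeq start of Dusp1 lies inside the longer GENCODE gene whose coordinates are given with its levels.
Fos: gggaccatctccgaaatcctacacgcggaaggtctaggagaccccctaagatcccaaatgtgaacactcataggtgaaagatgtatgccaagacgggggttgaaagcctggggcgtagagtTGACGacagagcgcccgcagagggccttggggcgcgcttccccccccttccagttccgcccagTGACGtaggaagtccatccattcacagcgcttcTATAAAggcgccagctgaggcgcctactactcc
Jun: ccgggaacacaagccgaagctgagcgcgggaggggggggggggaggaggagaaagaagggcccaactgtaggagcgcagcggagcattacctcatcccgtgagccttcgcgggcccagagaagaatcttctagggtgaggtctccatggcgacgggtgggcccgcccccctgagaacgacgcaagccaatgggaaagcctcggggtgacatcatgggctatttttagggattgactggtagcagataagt
Junb: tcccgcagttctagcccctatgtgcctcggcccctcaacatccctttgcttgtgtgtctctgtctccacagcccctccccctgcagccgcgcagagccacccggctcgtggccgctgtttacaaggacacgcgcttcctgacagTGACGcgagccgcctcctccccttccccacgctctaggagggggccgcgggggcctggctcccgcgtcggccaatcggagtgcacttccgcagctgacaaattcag
Dusp1: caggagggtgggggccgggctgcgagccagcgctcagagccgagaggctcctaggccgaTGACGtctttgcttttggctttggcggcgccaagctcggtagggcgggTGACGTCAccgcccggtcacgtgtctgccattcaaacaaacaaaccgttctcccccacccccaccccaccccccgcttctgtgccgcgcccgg

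Both strands were searched. The CRE half-site, which lies inside the CRE, was found in 5 of the 8 windows (Fos, Fosb, Junb, Dusp1 and Nr4a1), or 62.5%, against 17.8% of 32851 RefSeq promoters of the same length. The full CRE was found once, 143 bases before the RefSeq start of Dusp1, against 1.55% of promoters. The SP1 site GGGCGG was in 6 of 8 windows (75%), against 32.7% of promoters, and overlapped none of the capitalised matches in the printed windows. The EGR site GCGNGGGCG was in the windows of Fosb and Nr4a1 (25%, against 4.7%), and the TATA box in that of Fos, 33 bases upstream (12.5%, against 12.4%). The CArG box, the AP-1 site, the STAT-bound GAS element TTCNNNGAA and the core of the interferon-stimulated response element were in none of the 8, against 1.47%, 6.75%, 7.02% and 2.98% of promoters. These are exact matches of letters in a fixed window of 250 bases, and 8 windows are few for a share. Variants, such as tgacatca in the Jun window, and sites farther upstream were not searched. An element found in none of the 8 may therefore still be present in these genes.

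All 10 genes passed the filter on low counts, but they sat at very different levels. Per kilobase of exon, which allows genes to be compared, the median over the 31 libraries was highest for Jund at 25.8 CPM per kb and Ier2 at 18.1. Klf6 (6.89), Jun (6.02), Junb (5.62), Egr1 (4.16) and Dusp1 (3.26) formed a middle range of CPM per kb. Nr4a1 at 1.33, Fos at 0.930 and Fosb at 0.265 CPM per kb were lowest. All further levels are in CPM of libraries scaled by TMM, without length.

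Fos, Fosb, Jun, Junb and Jund encode subunits of the AP-1 transcription factor: Fos proteins pair with Jun proteins, Jun is the activating partner, and Junb and Jund often restrain proliferation. Fos (ENSMUSG00000021250, chr12:85473890-85477273, plus strand, mm10) ranged from 0 to 29.9 CPM with a median of 2.19. No Fos count was found in VF AZA 3, VF COMBO 3 or VFDM AZA 3, where 3 counts would be 0.0956, 0.144 and 0.0911 CPM, and the highest library was VFDM COMBO 3. The highest and lowest Fos group means were VFDM COMBO, 12.5 CPM with libraries at 1.95, 29.9 and 5.61, and VFDM AZA, 0.935 CPM with libraries at 1.85, 1.47, 0 and 0.416. Fos is thus carried by single libraries in several groups.

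Fosb (ENSMUSG00000003545, chr7:19302696-19310051, minus strand) was the lowest of the 10 per kilobase and had a median of 1.65 CPM and a top of 6.92 CPM in VFDM vehicle 3. It had no count in VF AZA 3 and VF COMBO 3, where 3 counts are 0.0956 and 0.144 CPM, and 1 count in VF AZA 2 and VF COMBO 2. Its group means ran from 0.869 CPM in VF IFN to 4.08 CPM in VFDM vehicle, and every group overlapped its neighbours in that order.

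Jun (ENSMUSG00000052684, chr4:95049034-95052222, minus strand) ranged from 5.39 CPM in VFDM AZA 1 to 108 CPM in VFDM IFN 4, with a median of 19.2. In VFDM IFN the libraries stood at 37.4, 42.0, 41.2 and 108 CPM, and in VFDM COMBO at 12.9, 12.7 and 13.0 CPM. The VFDM COMBO libraries were nearly identical, while VF AZA held 102 CPM in 1 library and 11.0, 11.3 and 17.9 CPM in the others. The annotated antisense gene Junos overlaps Jun and never exceeded 3.83 CPM.

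Junb (ENSMUSG00000052837, chr8:84974484-84978718, minus strand) had a median of 12.9 CPM. Its extremes lay in the same group: VF COMBO 3 was lowest at 5.42 CPM and VF COMBO 1 highest at 127 CPM (Wilson 95% interval 122 to 131, counting error only). In the other 7 groups Junb stayed between 8.79 and 35.1 CPM. The peroxidase gene Prdx2 overlaps Junb on the opposite strand, and whether the counting used strand is not stated in the labels, so reads of the pair may not be separated.

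Jund (ENSMUSG00000071076, chr8:70698949-70700616, plus strand) was the highest of the 10 per kilobase and had a median of 43.0 CPM and a range from 15.4 CPM in VFDM COMBO 2 to 105 CPM in VF vehicle 4. Its group means ran from 32.7 CPM in VFDM COMBO to 61.9 CPM in VF vehicle, and neighbours in that order overlapped. The antisense gene Gm11175 overlaps it and was at most 7.30 CPM.

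Egr1 and Klf6 encode zinc-finger transcription factors, and Nr4a1 an orphan nuclear receptor. Egr1 (ENSMUSG00000038418, chr18:34859823-34864984, plus strand) had a median of 18.7 CPM and ranged from 5.52 CPM in VFDM COMBO 3 to 43.7 CPM in VF AZA 1. Klf6 (ENSMUSG00000000078, chr13:5861482-5870394, plus strand) ranged from 14.2 to 51.5 CPM around a median of 30.2. Its lowest and highest libraries were both VF COMBO, replicates 3 and 1.

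Nr4a1 (ENSMUSG00000023034, chr15:101254269-101274795, plus strand) had a median of 4.66 CPM and ranged from 1.62 CPM in VF vehicle 2 to 18.2 CPM in VFDM COMBO 3. In VF AZA its libraries stood at 8.26, 13.7, 14.2 and 4.59 CPM, against 6.03, 1.62, 2.89 and 5.44 CPM in VF vehicle. Of these VF AZA libraries, 3 lay above every VF vehicle library and the fourth lay among them. VFDM vehicle was tight, at 4.00 to 4.66 CPM.

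Ier2 is a small nuclear protein of the early response, and Dusp1 a phosphatase that switches off MAP kinases and so closes the feedback loop. Ier2 (ENSMUSG00000053560, chr8:84661331-84662852, minus strand) lies 312 kb from Junb and ranged from 10.1 CPM in VF COMBO 3 to 51.2 CPM in VFDM IFN 4, with a median of 27.5. Dusp1 (ENSMUSG00000024190, chr17:26505590-26562128, minus strand) ranged from 0.480 CPM in VF COMBO 3 to 35.8 CPM in VF COMBO 1, with a median of 10.8. Ergic1, a gene of the secretory pathway, overlaps Dusp1 on the opposite strand and ran from 45.9 to 98.5 CPM over the 31 libraries.

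**Figure D1:**
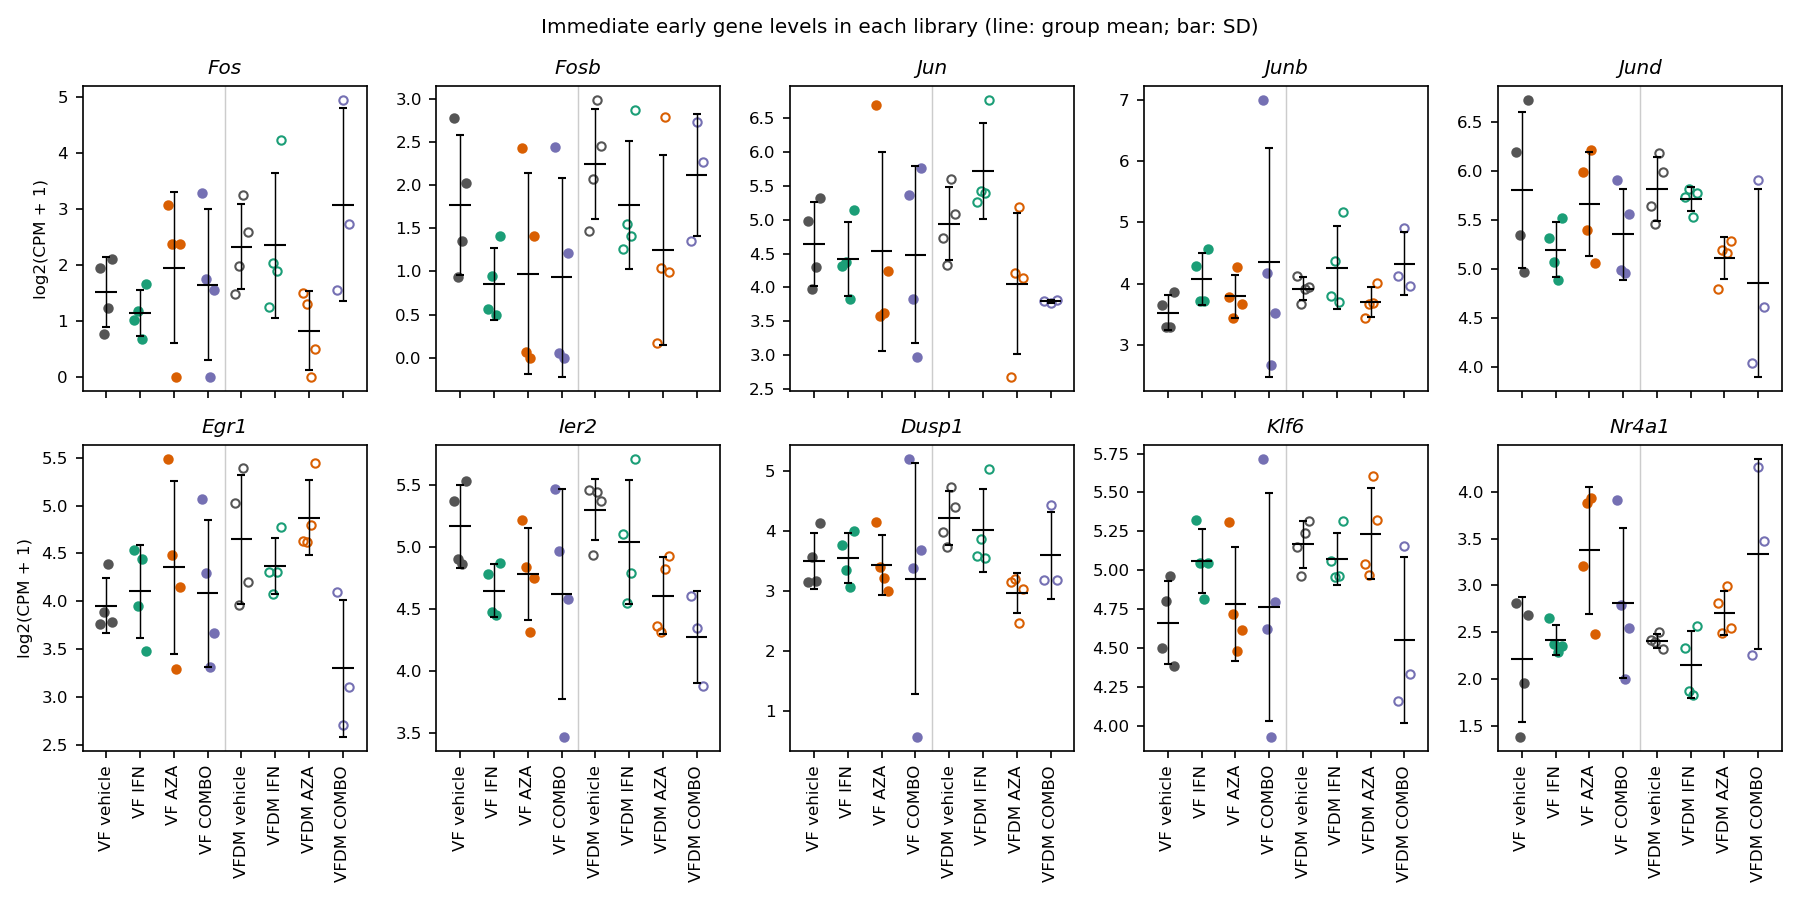
Level of each of the 10 genes in each of the 31 libraries, on the log2(CPM + 1) scale (vertical axis, own range for each gene); points are libraries, filled for VF and open for VFDM, lines are group means and bars 1 SD. Single high libraries, such as Junb in VF COMBO at 127 CPM and Jun in VF AZA at 102 CPM, set the width of several bars.

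The spread between libraries of a group was large beside the differences between groups. The share of a gene's variance in log2 CPM that lay between group means was 15.4% (Junb) to 43.9% (Nr4a1). The median over the 10 genes was 33.6%, against 34.5% over all 22172 genes tested. With 8 groups of few libraries, part of such a share arises without any group difference, and it was not corrected for that. The dispersion, which is edgeR's squared coefficient of variation within groups beyond counting noise, was above the trend for genes of its level for 8 of the 10. Jun stood farthest out, at 4.68 times the trend and the 99.2 percentile of all genes tested, followed by Fos at 2.20 times (percentile 96.5) and Junb at 2.17 times (percentile 96.3). Jund (1.82), Dusp1 (1.73), Fosb (1.58) and Egr1 (1.42) were also above the trend, and Ier2 lay near it at 1.08 times. Klf6 at 0.936 times and Nr4a1 at 0.647 times were below it. Of all genes tested, 65.9% had a lower ratio than Ier2 and 54.4% a lower ratio than Klf6. These ratios describe the libraries and were not tested. The median dispersion was 0.257 over the 10 genes and 0.272 over all genes tested, which differ in level.

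**Figure D2:**
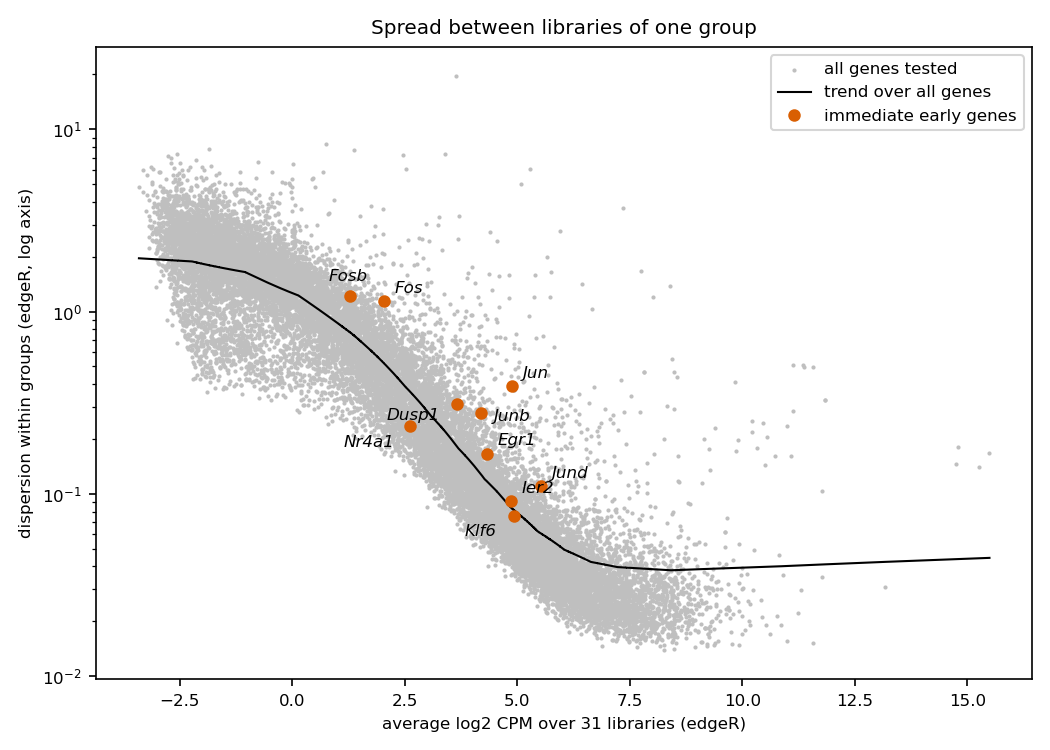
Dispersion within groups (vertical log axis) against average log2 CPM (horizontal axis) for all 22172 genes tested (grey), with edgeR's trend as a line and the 10 immediate early genes in orange. Jun lies 4.68 times above the trend, whereas Klf6 and Nr4a1 lie below it.

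Libraries tended to be high or low for many of the 10 at once. VF COMBO 1 was the highest library of its group for 9 of 10 genes and VF COMBO 3 the lowest for 10 of 10. VFDM IFN 4 was highest of its group for 9 genes. VF AZA 1, VF IFN 4, VFDM vehicle 3 and VFDM COMBO 3 were each highest for 7, while VF IFN 3 was lowest for 9 and VFDM vehicle 2 lowest for 7.

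**Figure D3:**
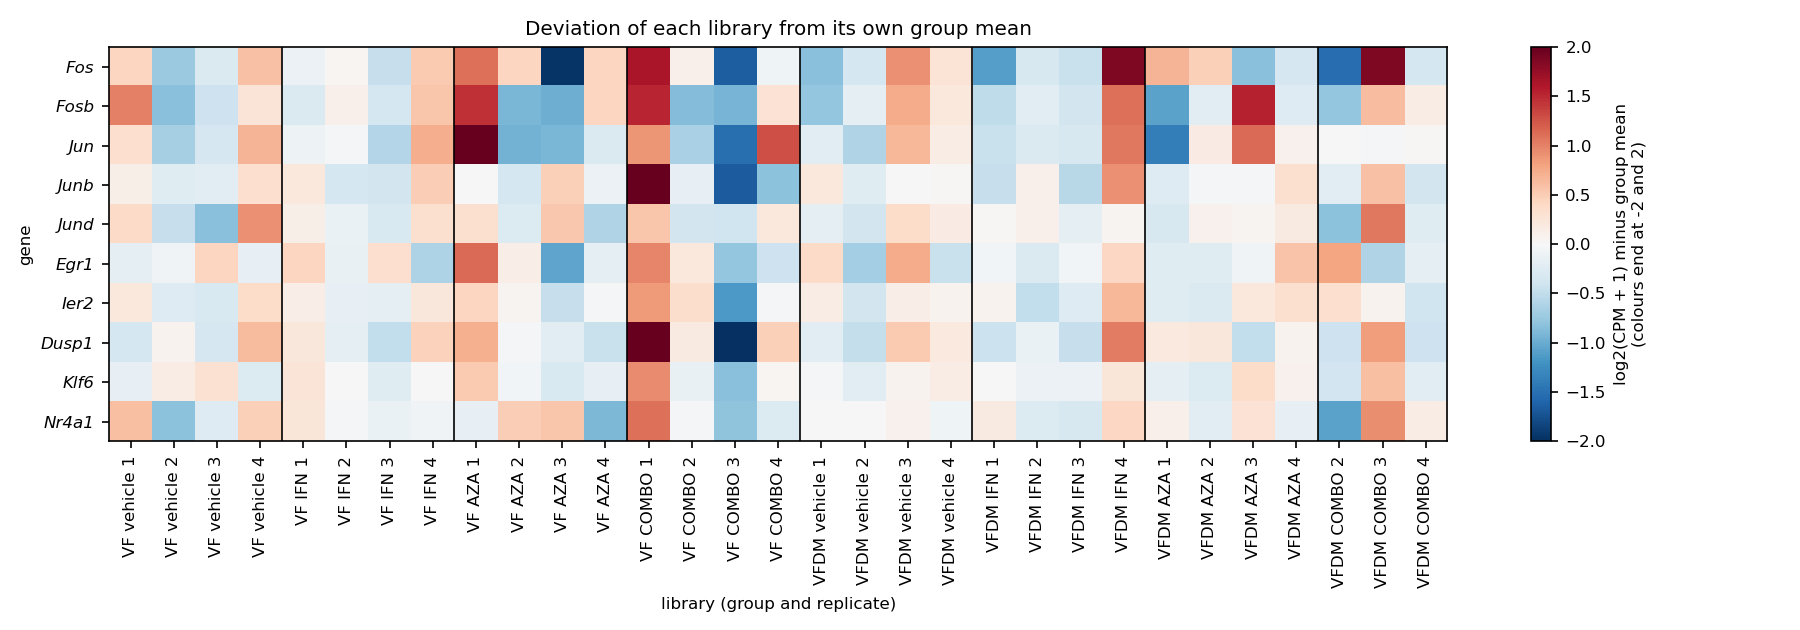
Each library's deviation from its group mean, as a difference in log2(CPM + 1) (colour), for the 10 genes (rows) in the 31 libraries (columns, groups separated by lines). VF COMBO 1 and VFDM IFN 4 lie above their group mean in all 10 rows, and VF COMBO 3 below it in all 10.

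After the group mean was taken out of each gene's log2 CPM, 43 of the 45 pairs among the 10 genes correlated positively over the 31 libraries, with a median Pearson r of 0.498. In permutation tests with 100000 shuffles within groups, two-sided and adjusted over the 45 pairs, 19 pairs had an adjusted p under 0.05, all positive, and 10 of these also did so by Spearman's rho. The closest pair was Fosb and Jun, both AP-1 subunits, with r = 0.882 (adjusted permutation p = 0.00045, from the smallest p of 1e-05 that these permutations can give) and rho = 0.873. Without the 2 libraries farthest from the median of Fosb its r was 0.864. Fos and the phosphatase gene Dusp1 followed together, with r = 0.730 (adjusted permutation p = 0.00247) and rho = 0.756. Ier2 took part in 7 of the 19 pairs, for example with Dusp1 (r = 0.769, adjusted permutation p = 0.0114) and Egr1 (r = 0.628, adjusted permutation p = 0.00937). The lowest r was −0.147, between Jund and Egr1, and Egr1 took part only in its pair with Ier2 among the 19. Without the 8 libraries of fewer than 20000 detected rows, and without VF COMBO 4, then alone in its group, 18 pairs were called over 22 libraries. Many of these were other pairs. Klf6 took part in 5 of the 19 pairs but in none here, with r for Fosb and Klf6 going from 0.648 to 0.126. Egr1 and Ier2 went to r = 0.430 (adjusted permutation p = 0.16). Fos and Fosb, not among the 19, were called here (r = 0.796, adjusted permutation p = 0.00349). Without VF vehicle 1, 2 and 4, and VF vehicle 3 then alone in its group, 19 pairs were called over 27 libraries, not all of them the same. Leaving out VF COMBO 1 gave 16 pairs, VF COMBO 3 gave 14 and VFDM IFN 4 gave 13, and the Fosb and Jun r stayed between 0.838 and 0.891. Pairs of other genes were not taken through the same permutations. The share of pairs that would be called among all genes is therefore not known, and the counts do not single out these 10. Cell content is shared by all genes of a library, and its part in these correlations was not tested.

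**Figure D4:**
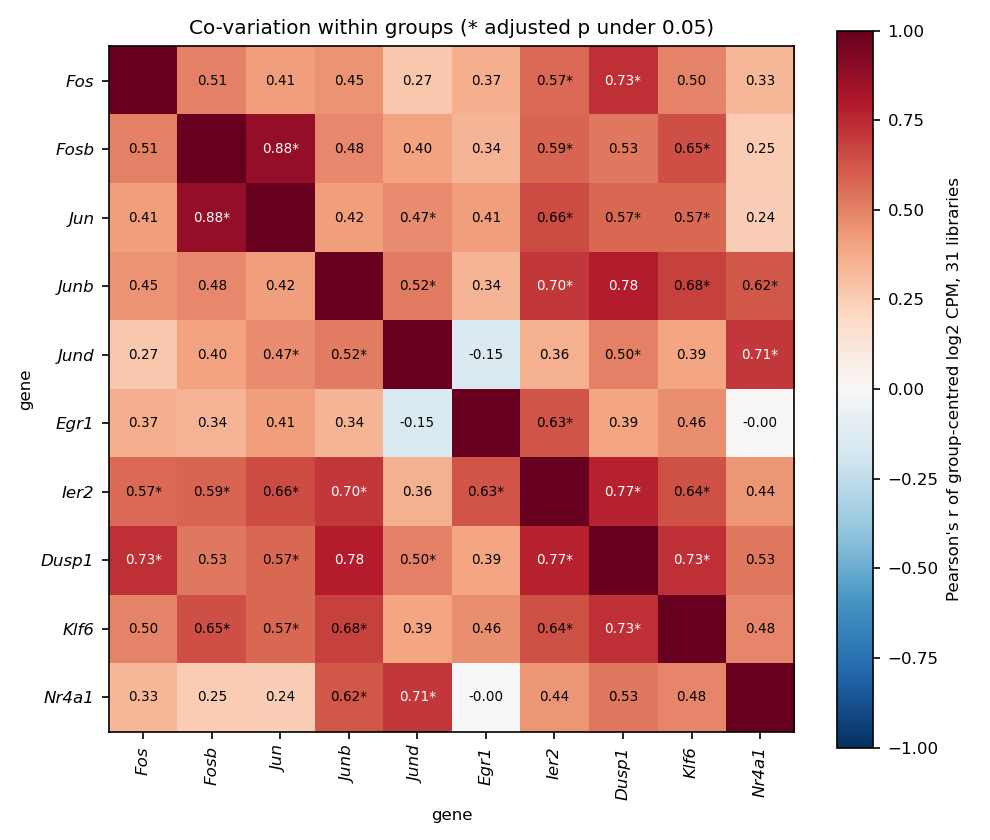
Pearson's r (colour and number) between the group-centred log2 CPM of each pair of the 10 genes over 31 libraries; stars mark the 19 pairs with an adjusted permutation p under 0.05. The Fosb and Jun cell holds the highest value, 0.88, and 43 of 45 pairs are above 0.

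Some of the libraries that stood out for these genes differed in markers of other cells. VF COMBO 1 held 144 CPM summed over 9 T and NK cell markers, against 20.6 to 20.9 CPM in the other VF COMBO libraries and 4.65 to 13.9 CPM in VF vehicle. The T cell receptor complex genes Cd3e and Cd3g were at 23.8 and 43.0 CPM in VF COMBO 1 and at 0 in the other VF COMBO libraries, while the cytotoxic gene Gzma was at 0 in all VF COMBO libraries. VFDM IFN 4 held 583 CPM over 9 neutrophil markers, against 93.7 to 230 CPM in its group, and 208 CPM over 7 monocyte markers, against 105 to 122 CPM. VF COMBO 3, low in all 10 genes, had the fewest detected rows, 17087. Its erythroid sum was 622 CPM, against 102 to 183 CPM in the other VF COMBO libraries. Its LT-HSC (1459 CPM) and progenitor (64.4 CPM) sums were the lowest of its group. VFDM COMBO 3 had the highest sums of its group for T and NK cell (45.4 CPM), B cell (38.3 CPM) and monocyte (230 CPM) markers. The same held for its neutrophil (1610 CPM) and erythroid (20175 CPM) markers. VF AZA 1 had the lowest sums of its group for T and NK cell (5.69 CPM), neutrophil (30.2 CPM) and erythroid (17.6 CPM) markers. It also had the lowest progenitor (76.4 CPM) and LT-HSC (1740 CPM) sums, but the highest monocyte (99.4 CPM) and B cell (4.31 CPM) sums. VFDM vehicle 3 had the lowest erythroid sum of its group (10.0 CPM) and the highest B cell sum (6.13 CPM). The part of these markers in the levels of the immediate early genes was not tested.

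In the joint edgeR test of any difference among the 8 groups, none of the 10 genes was called at an adjusted p under 0.05, where 15.9% of all genes were. At an unadjusted p under 0.05 there were 4 (Junb, Egr1, Ier2 and Nr4a1), against 29.5% of all genes, and DESeq2 called 2 (Junb and Nr4a1). The smallest adjusted p was that of Nr4a1, 0.0816. The count was 2 without the libraries of fewer than 20000 detected rows (Ier2 and Klf6). Leaving out single libraries called 1 gene without VF AZA 4 (Nr4a1), VF COMBO 1 (Nr4a1), VF COMBO 4 (Junb), VFDM COMBO 2 (Nr4a1) or VFDM COMBO 3 (Jund), and 2 without VF COMBO 3 (Junb and Nr4a1).

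The first question of the design is what each drug does to stem cells with intact Dnmt3a. Under IFN in VF, no immediate early gene was called (2.43% of all genes were), and 5 of the 10 had a positive and 5 a negative log2 fold change, with a median of −0.10 against −0.02 over all genes. By edgeR 1 gene had an unadjusted p under 0.05, against 12.4% of all genes, and DESeq2 called none. That gene was Jund, with libraries at 38.9, 32.6, 28.6 and 44.9 CPM under IFN and 72.3, 39.8, 30.5 and 105 CPM under vehicle. The Jund groups overlapped, and its log2 fold change was −0.77 ± 0.34 (SE; edgeR adjusted p = 0.305). The 2 high vehicle libraries, replicates 1 and 4, are among those rich in small RNA, and without VF vehicle 1, 2 and 4 the log2 fold change turned to 0.26 ± 0.47 (SE; adjusted p = 1). The median over the 10 genes turned to 0.16, with 0 called.

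AZA in VF likewise called none of the 10, where 1.2% of all genes were called, and DESeq2 called none. The median log2 fold change over the 10 was 0.22, against −0.07 over all genes. Nr4a1 was the only one of the 10 with an unadjusted p under 0.05 (14.1% of all genes), with the libraries given above, and its log2 fold change was 1.36 ± 0.51 (SE; edgeR adjusted p = 0.195). Against VF vehicle 3 alone it was 1.82 ± 0.89 (SE; adjusted p = 1), the median over the 10 genes was 0.48, and again 0 were called.

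The combination in VF called Junb and none of the other 9, where 8.29% of all genes were called (4.16% higher). Junb was also the only one with an unadjusted p under 0.05, against 24.6% of all genes. The VF COMBO libraries stood at 127, 17.2, 5.42 and 10.6 CPM and the vehicle libraries at 11.6, 8.79, 8.86 and 13.7 CPM. The groups overlapped: 1 library was far above vehicle, 1 was above it, 1 fell among the vehicle values and 1 below them. The log2 fold change was 1.90 ± 0.56 (SE; edgeR adjusted p = 0.0333), from means of 40.0 ± 58.1 CPM (SD, n = 4) and 10.7 ± 2.35 CPM (SD, n = 4). Without VF COMBO 1 it was 0.11 with an adjusted p of 0.888, so the call rested on that library. Junb also lost its call without VF vehicle 1, 2, 3 or 4 (adjusted p 0.0675, 0.0717, 0.0661 and 0.0684), and against VF vehicle 3 alone (log2 fold change 2.18, adjusted p 0.762). Prdx2, on the other strand, was at 122 CPM in VF COMBO 1 and 54.4 to 91.3 CPM in the other 3. The T cell transcripts of VF COMBO 1 are given above, and their part in the Junb value was not tested.

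The second question is the same in cells without Dnmt3a. Under IFN in VFDM none of the 10 was called (0.965% of all genes), none had an unadjusted p under 0.05 (6.13% of all genes), and DESeq2 called none. The median log2 fold change was −0.13, against −0.01 over all genes. Without the library labelled VFDM IFN 3 the count was again 0. Jun had the most positive difference, 0.86 ± 0.66 on the log2 scale (SE; edgeR adjusted p = 1), with VFDM vehicle libraries at 25.6, 19.2, 47.5 and 33.0 CPM, which the IFN libraries at 37.4 to 108 CPM overlapped.

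AZA in VFDM called none of the 10 (0.925% of all genes) and DESeq2 called none. Of the 10, 7 had negative fold changes, and the median was −0.72, against −0.04 over all genes. At an unadjusted p under 0.05 edgeR gave 3, Jund, Ier2 and Dusp1, against 9.53% of all genes. For these 3 the groups did not overlap, each lower under AZA, where 7.94% of all genes were separated in that direction. Dusp1 libraries stood at 7.89, 8.15, 4.56 and 7.22 CPM under AZA and 14.9, 12.3, 25.8 and 20.2 CPM under vehicle. Its log2 fold change was −1.40 ± 0.59 (SE; edgeR adjusted p = 0.394), and Dusp1 was called in a fit of these 2 groups' libraries alone. Ier2 stood at 19.6, 18.9, 27.3 and 29.4 CPM against 42.9, 29.6, 42.4 and 40.4 CPM, a log2 fold change of −0.71 ± 0.30 (SE; adjusted p = 0.401).

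The combination in VFDM called 2 of the 10, Egr1 and Ier2, both lower, where 16% of all genes were called (10.5% lower). At an unadjusted p under 0.05 there were 4, with Jund and Nr4a1, against 29.6% of all genes. Ier2 libraries stood at 23.3, 19.3 and 13.7 CPM under COMBO, all below the 4 vehicle libraries at 42.9, 29.6, 42.4 and 40.4 CPM. Ier2 fell by 1.05 ± 0.33 on the log2 scale (SE; edgeR adjusted p = 0.0270), from a mean of 38.8 ± 6.23 CPM (SD, n = 4) to 18.8 ± 4.85 CPM (SD, n = 3). The Ier2 call was lost without VFDM vehicle 1, 3 or 4 (adjusted p 0.0734, 0.0717 and 0.0624) and without VFDM COMBO 3 or 4 (0.0761 and 0.158), with log2 fold changes from −0.82 to −1.19 over the 7 libraries left out in turn.

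Egr1 libraries stood at 16.1, 5.52 and 7.59 CPM under COMBO and at 31.5, 14.6, 41.0 and 17.5 CPM under vehicle in VFDM. The highest COMBO library lay above the lowest vehicle library, so the groups overlapped. Egr1 fell by 1.42 ± 0.46 on the log2 scale (SE; edgeR adjusted p = 0.0322), from 26.2 ± 12.4 CPM (SD, n = 4) to 9.74 ± 5.61 CPM (SD, n = 3). The call was lost without VFDM vehicle 1 or 3 (adjusted p 0.0820 and 0.134) and without VFDM COMBO 3 or 4 (0.162 and 0.138), with the compared groups alone (0.0577), where Jun and Ier2 were called, and without the libraries of fewer than 20000 detected rows (0.0677), where Jund, Ier2 and Klf6 were called. Leaving out VFDM COMBO 2 added Nr4a1 to the calls, and leaving out VFDM COMBO 3 left Jund as the only one. With the replicate number as a block the adjusted p of Egr1 was 0.0606.

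Of the other 8 genes, Jun was lower in all 3 COMBO libraries than in any VFDM vehicle library, with Ier2 making 2 of the 10, where 23.4% of all genes were separated in that direction. Its log2 fold change of −1.28 ± 0.74 (SE) had an edgeR adjusted p of 0.268. Nr4a1 went the other way, with libraries at 3.78, 18.2 and 10.1 CPM against 4.33, 4.26, 4.66 and 4.00 CPM, so 2 of 3 COMBO libraries lay above vehicle and 1 below. Its log2 fold change was 1.31 ± 0.54 (SE; edgeR adjusted p = 0.0922), and DESeq2 called it beside Egr1 and Ier2. In VFDM COMBO the makeup of the libraries also differed: all 9 erythroid markers rose, with a sum of 1490 to 20175 CPM against 10.0 to 98.5 CPM in VFDM vehicle. Of 8 neutrophil markers tested 5 rose, with sums over the list of 632 to 1610 against 34.1 to 95.7 CPM, and 6 of 11 LT-HSC markers fell, with sums of 1092 to 1498 against 2139 to 2321 CPM. The part of these markers in the Egr1 and Ier2 differences was not tested.

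**Figure D5:**
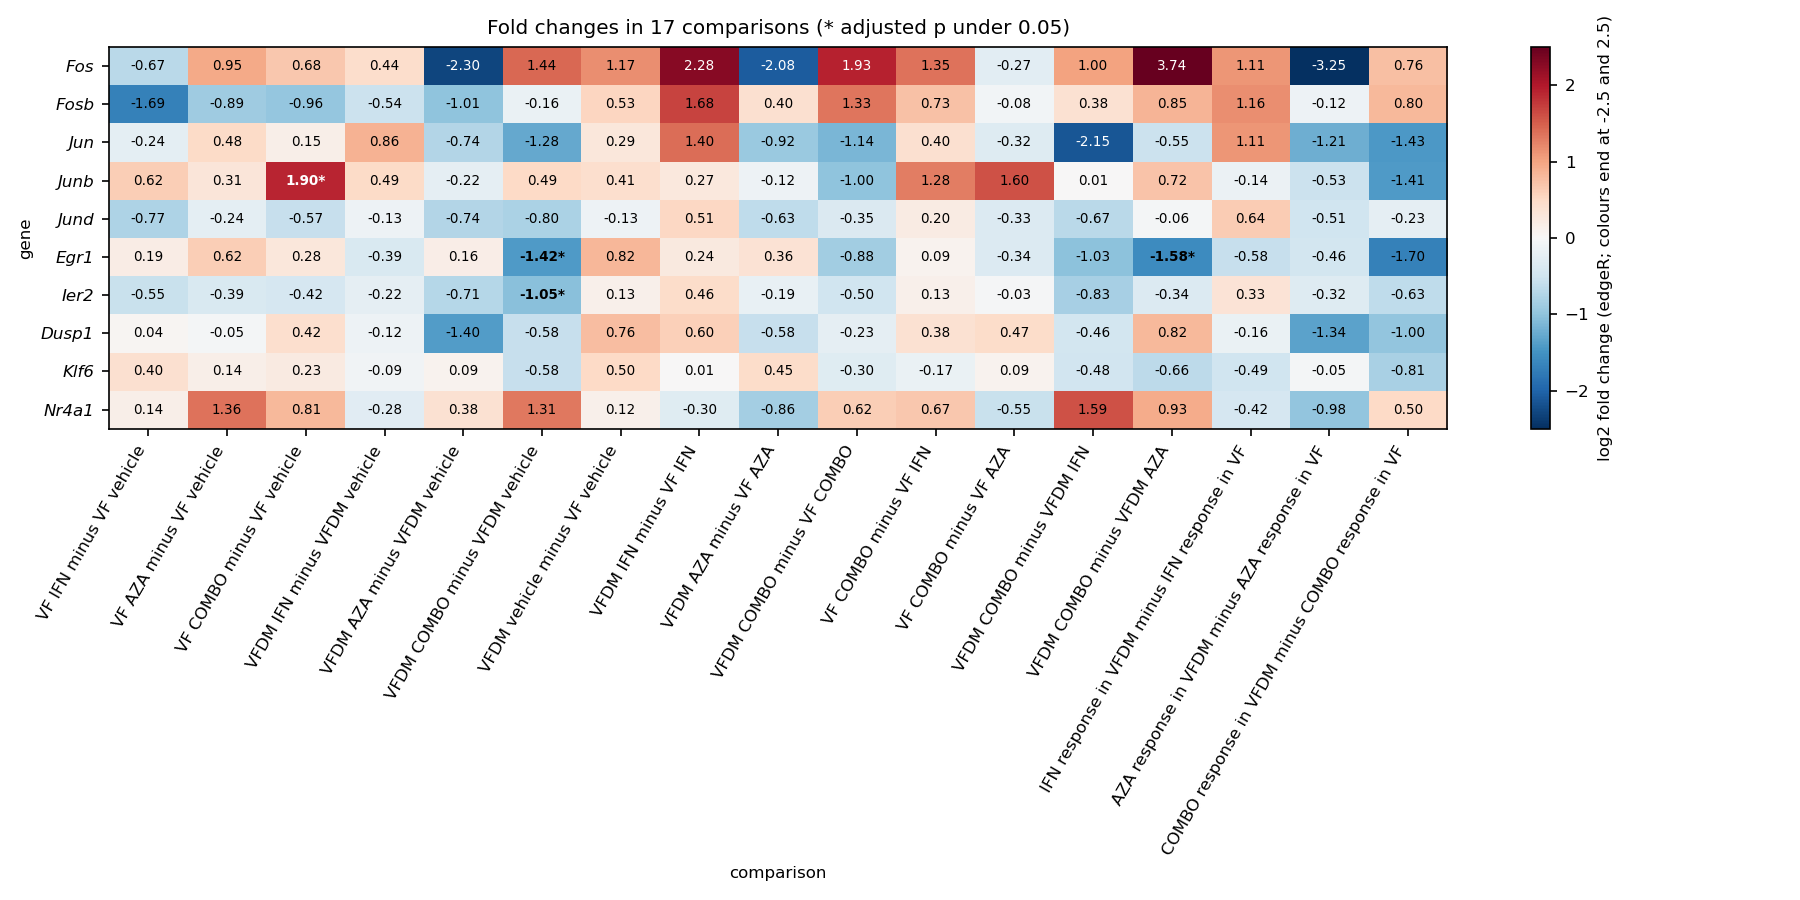
Log2 fold change (edgeR; colour and number) of the 10 genes (rows) in 17 comparisons (columns); stars mark an adjusted p under 0.05. The 4 starred cells are Junb in VF COMBO, Egr1 and Ier2 in VFDM COMBO against vehicle, and Egr1 in VFDM COMBO against VFDM AZA.

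Against the single drugs, the combination moved few of these genes. In VF, none of the 10 was called between COMBO and IFN (0.00902% of all genes). By edgeR 1 had an unadjusted p under 0.05 (11.2% of all genes), and DESeq2 called none. None was called between COMBO and AZA in VF either (1.85% of all genes; 1 at an unadjusted p under 0.05, against 16.8%), where DESeq2 called Junb. Its log2 fold change there was 1.60 ± 0.56 (SE; edgeR adjusted p = 0.135), and edgeR called Junb without VF COMBO 3 or VF COMBO 4.

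In VFDM, COMBO against IFN called none of the 10 (7.88% of all genes), while 4 had an unadjusted p under 0.05 (21.8% of all genes) and DESeq2 called 2, Jun and Nr4a1. Jun was at 12.7 to 13.0 CPM under COMBO and at 37.4 to 108 CPM under IFN, with no overlap, where 14.7% of all genes were separated in that direction. Its log2 fold change was −2.15 ± 0.77 (SE; edgeR adjusted p = 0.0900). Without the library labelled VFDM IFN 3 the count was again 0, while leaving out VFDM COMBO 2 called Nr4a1 and leaving out VFDM COMBO 3 called Jund.

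COMBO against AZA in VFDM called 1 of the 10, Egr1, where 7.82% of all genes were called (5.87% lower), and 3 had an unadjusted p under 0.05 (22.5% of all genes). Egr1 libraries stood at 23.7, 23.7, 26.8 and 42.7 CPM under AZA, all above the COMBO libraries at 5.52 to 16.1 CPM, where 9.13% of all genes were separated in that direction. Egr1 was lower under COMBO by a log2 fold change of −1.58 ± 0.47 (SE; edgeR adjusted p = 0.0303), from means of 9.74 ± 5.61 CPM (SD, n = 3) and 29.2 ± 9.08 CPM (SD, n = 4). This call was lost without VFDM AZA 4 (adjusted p 0.0964), VFDM COMBO 3 (0.170) or VFDM COMBO 4 (0.132). It was also lost without the libraries of fewer than 20000 detected rows (0.211), where Klf6 was called instead. Fos was higher in all 3 COMBO libraries than in any AZA library, where 5.77% of all genes were separated in that direction. Its log2 fold change of 3.74 ± 1.32 (SE) had an edgeR adjusted p of 0.0791, and DESeq2 called it. The VFDM COMBO libraries enter all 3 of these VFDM comparisons, so they are not independent of one another.

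Between the genotypes, no immediate early gene was called under any treatment. Under vehicle 0.956% of all genes were called, under IFN 0.00902%, under AZA 0.74% and under COMBO 5.11%. The corresponding counts at an unadjusted p under 0.05 were 0, 1, 0 and 0 of 10, against 11.4%, 1.2%, 10.9% and 20.5% of all genes, and DESeq2 called 0 in each. The median log2 fold change of VFDM over VF was 0.46 under vehicle (9 of 10 positive), 0.49 under IFN (9 of 10 positive), −0.39 under AZA and −0.33 under COMBO (7 of 10 negative in each), against medians of −0.06 to −0.01 over all genes. Against VF vehicle 3 alone the vehicle median was 0.72 (10 of 10 positive), with 0 called. Jun and Jund were higher in every VFDM IFN library than in any VF IFN library, 2 of the 10, where 1.7% of all genes were separated in that direction. Jun stood at 37.4 to 108 CPM in VFDM IFN and at 18.9, 19.8, 13.2 and 34.5 CPM in VF IFN (log2 fold change 1.40 ± 0.67, SE; edgeR adjusted p = 1). Without the library labelled VFDM IFN 3 the count of genes called between the genotypes under IFN was again 0.

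The test of whether the genotypes respond differently to a drug called none of the 10. For IFN no gene of all 22172 was called (0%), and none of the 10 had an unadjusted p under 0.05 (5.18% of all genes). Without the library labelled VFDM IFN 3 the count called was again 0. For AZA 0.582% of all genes were called and none of the 10 had an unadjusted p under 0.05 (10.4% of all genes). All 10 differences were negative, with a median of −0.52 on the log2 scale, against 0.00 over all genes. The 10 genes varied together between libraries, so the counts of signs given here and above are not counts of independent results. For COMBO 3.74% of all genes were called, and 1 of the 10, Egr1, had an unadjusted p under 0.05 (19.8% of all genes), with a difference of −1.70 ± 0.62 (SE; edgeR adjusted p = 0.114). DESeq2 called none in the 3 tests. Without VFDM COMBO 2 edgeR called Egr1 in the test for COMBO. With VF vehicle 3 as the only VF vehicle library 0 were called in each of the 3 tests, and the median differences were −0.19 for IFN, −1.20 for AZA (9 of 10 negative) and −1.09 for COMBO.

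Other genes of the response were read from lists of names. Of 34 other immediate early genes tested, 3 were called in the joint test, where 15.9% of all genes were. They were Per1, a circadian repressor, Myc, a driver of growth, and Klf2, a zinc-finger transcription factor. Klf2 was 7.49 ± 13.6 CPM (SD, n = 4) in VF COMBO, with libraries from 0 to 27.9 CPM, so single libraries weigh on that mean. It was 3.83 ± 3.22 CPM (SD, n = 3) in VFDM COMBO, and the other group means were only 0.0975 to 1.04 CPM. Per1 was 90.7 ± 12.7 CPM (SD, n = 4) in VF vehicle and 47.8 ± 15.8 CPM (SD, n = 4) in VF IFN. It fell by 0.92 ± 0.18 on the log2 scale (SE; edgeR adjusted p = 0.00133). VFDM vehicle held 43.2 ± 2.97 CPM (SD, n = 4), and Per1 was lower there than in VF vehicle by a log2 fold change of −1.07 ± 0.18 (SE; edgeR adjusted p = 0.00102). Both calls rest on the same VF vehicle libraries, at 74.1 to 101 CPM, and both were lost against VF vehicle 3 alone, with log2 fold changes of −0.62 and −0.77 (adjusted p = 1 for each). Under VF COMBO 1 gene rose (Tnfaip3) and Per1 fell, where 8.29% of all genes were called, and under VFDM COMBO 2 rose (Btg2 and Gadd45g) and 1 fell (Rhob), where 16% were. The Per1 call in VF COMBO was lost with the compared groups alone (adjusted p 0.0666), without the libraries of few detected rows, which leave VF COMBO 4 alone in its group (0.124), and against VF vehicle 3 alone (0.752). Tnfaip3, Gadd45g and Rhob were chosen after their values were seen, and the Tnfaip3 call was lost without VF COMBO 1 (adjusted p 0.351) and without VF vehicle 1, 2, 3 or 4 (0.0688, 0.0522, 0.0622 and 0.0721). Btg2, an antiproliferative gene, was not called without VFDM COMBO 3 (0.0806), and Gadd45g, a stress gene, without VFDM vehicle 2, 3 or 4 (0.0949, 0.0601 and 0.0625) or VFDM COMBO 3 or 4 (0.1001 and 0.0958). Rhob, a small GTPase gene, kept its call in each alternative run.

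Among 27 genes of the pathway upstream, VFDM COMBO against vehicle gave 2 higher and 5 lower, where 16% of all genes were called and 10.5% were lower, with a median log2 fold change of −0.17 against −0.08 over all genes. Mrtfb, a coactivator of SRF that senses actin, was at 98.7 ± 4.72 CPM (SD, n = 4) in VFDM vehicle and 34.2 ± 1.50 CPM (SD, n = 3) in VFDM COMBO, with no overlap. It fell by 1.53 ± 0.20 on the log2 scale (SE; edgeR adjusted p = 1.36e-06). In VF the means were 76.2 ± 18.3 CPM under vehicle and 64.0 ± 20.7 CPM under COMBO, and the response differed between genotypes by −1.28 ± 0.27 (SE; edgeR adjusted p = 0.00411). With VF vehicle 3 as the only VF vehicle library that difference was −0.89 (adjusted p 0.490). Map3k1, a kinase upstream of JNK, fell in VFDM COMBO by 1.29 ± 0.22 (SE; edgeR adjusted p = 6.78e-05), and Rps6ka1, a kinase downstream of ERK, by 0.95 ± 0.23 (adjusted p = 0.00286). The erythroid, neutrophil and LT-HSC marker sums given above differ between the same VFDM COMBO and vehicle libraries, and their part in these falls and in those of the AP-1 partners below was not tested. In VF COMBO 2 rose and 1 fell, calls that were lost against VF vehicle 3 alone, and none was called for AZA in VF or for IFN or AZA in VFDM, each against vehicle.

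Of 12 partners of AP-1 outside the Fos and Jun families, 2 fell in VFDM COMBO against vehicle, where 10.5% of all genes were lower, and none was called in the other drug comparisons with vehicle. Bach2, a repressor that competes at AP-1-like sites, fell by 1.83 ± 0.39 (SE; edgeR adjusted p = 0.00117), from 30.99 ± 9.01 CPM (SD, n = 4) to 8.66 ± 5.54 CPM (SD, n = 3). Jdp2, which represses AP-1 targets, fell by 1.39 ± 0.40 (SE; adjusted p = 0.0153) and lost its call without VFDM vehicle 4, VFDM COMBO 2 or VFDM COMBO 4 (0.0521, 0.129 and 0.0743).

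Of 12 genes of mRNA decay and its control, 4 rose and 1 fell in each of VF COMBO and VFDM COMBO against vehicle, where 8.29% and 16% of all genes were called. Of the VF COMBO calls, Tob1, chosen after its values were seen, had an adjusted p of 0.0499 and lost its call without VF vehicle 1, 2, 3 or 4 (0.0687, 0.0692, 0.0769 and 0.122) and without VF COMBO 1, 2 or 3 (0.0545, 0.0840 and 0.0579). Hnrnpd was not called without VF vehicle 1 or 4 or VF COMBO 3 (0.0916, 0.140 and 0.0778), nor Btg1 without VF vehicle 1 or 4 (0.0717 and 0.0781). Zfp36l1, which binds AU-rich elements such as those in immediate early messages, rose in both. In VF it went from 27.1 ± 2.35 CPM (SD, n = 4) to 72.9 ± 21.7 CPM (SD, n = 4), a log2 fold change of 1.43 ± 0.26 (SE; edgeR adjusted p = 5.47e-04), which was not called without the libraries of few detected rows, when VF COMBO 4 was the only library of its group (log2 fold change 0.75, adjusted p 0.373), nor against VF vehicle 3 alone (1.43, adjusted p 0.434). In VFDM it went from 21.3 ± 1.03 CPM (SD, n = 4) to 60.6 ± 12.3 CPM (SD, n = 3), a log2 fold change of 1.51 ± 0.27 (SE; adjusted p = 1.33e-04). In VFDM AZA it was 44.7 ± 15.9 CPM (SD, n = 4), a log2 fold change of 1.07 ± 0.25 (SE; adjusted p = 0.0269) that was lost without any 1 of the 4 vehicle libraries (0.0628 to 0.0963), VFDM AZA 3 (0.198) or VFDM AZA 4 (0.0941). Of 14 heat-shock genes tested, which mark protein stress, 2 fell in VF IFN, where 2.43% of all genes were called, Hsph1 by 0.86 ± 0.20 (SE; adjusted p = 0.0104) and Dnaja1 by 0.70 ± 0.15 (SE; adjusted p = 0.00425). Hsph1 lost that call without VF vehicle 1 or VF IFN 1 (0.0503 and 0.106), and both calls were lost with the compared groups alone (0.0695 for Hsph1 and 0.0598 for Dnaja1). Both were also lost against VF vehicle 3 alone, where 1 vehicle library remains. The falls were not smaller there, with log2 fold changes of −1.14 for Hsph1 and −0.77 for Dnaja1. The same 2 fell in VF COMBO, a call that Dnaja1 lost without VF vehicle 4 or VF COMBO 2, 3 or 4 (0.119, 0.0568, 0.113 and 0.0551). In VFDM COMBO 2 rose, Hspd1 by 0.77 ± 0.18 (SE; adjusted p = 0.00323) and Hsp90aa1 by 0.68 ± 0.20 (SE; adjusted p = 0.0166). Hsp90aa1 lost that call without VFDM COMBO 4 (0.107). The VF COMBO call of Hsph1 was lost without any 1 of the 8 libraries compared (0.0520 to 0.174). The response of Hsph1 to COMBO was higher in VFDM than in VF by 1.12 ± 0.29 (SE; adjusted p = 0.0224), a call lost without VF COMBO 1, VFDM vehicle 1 or 3, or VFDM COMBO 2 or 4 (0.0507 to 0.0666) and with VF vehicle 3 as the only VF vehicle library (0.118).

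The genes most like the 10 were those whose log2 CPM correlated best with their mean standardised level over the 31 libraries, among 7812 genes with a mean log2 CPM of at least 4. They were Cmtm6 (Pearson r = 0.741), Lrch1 (0.707), Ets2 (0.683), Neurl1b (0.679), Pik3c2a (0.673) and Znrf3 (0.670), followed by Arsb, Acot9, Sirpa and Flot2 (0.657 for the last). The median r of the 7812 genes was −0.01. Cmtm6 ran from 29.0 to 105 CPM and was highest in VF COMBO 1. None of these genes was on the lists of immediate early, upstream, decay or heat-shock genes. The points share library, depth and cell content, and the r values are a description.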

How the data were processed

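Bulk RNA of sorted LT-HSCs was sequenced in 31 libraries of 8 groups, grouped by their labels. The deposited table holds raw counts per gene, deposited by the authors on mm10. The submitters' processing notes name STAR 2.7.10a, featureCounts, FastQC 0.11.5 and R 4.3.0. The sources used here give no annotation, strand setting or treatment of multimapping reads. Libraries held 17782394 to 73910928 counts.

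Of 55492 rows, 22172 passed edgeR's filterByExpr. Libraries were scaled by TMM and tested with edgeR 4.0.16 (quasi-likelihood, robust) in R 4.3.3, with 1 fit over all groups, Benjamini-Hochberg adjustment over all rows tested and a threshold of 0.05. SE is the log2 fold change divided by the root of F. Levels are CPM, and log2 CPM used a prior count of 2. Symbols came from GENCODE. The scripts were tested on simulated data.

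The alternatives were DESeq2 1.42.0, its size factors within edgeR, no filter, a replicate block, only the compared groups, leaving out libraries with fewer than 20000 detected rows, leaving out each library, and leaving out libraries with over 15% of counts on small RNA genes. The last of these, and the alternatives for genes of the lists and for gene pairs, were chosen after seeing the data. The members, lists and tests were chosen with earlier results of these data known. The 10 genes are always named, with up to 4 genes of each other list by smallest p in the joint test, and other names are marked as chosen after their values were seen. A result on an upstream gene is not reported here.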

Additional observations from a re-analysis of the deposited data

Results flagged for a closer look

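A library was singled out when its gap to the nearest library of its group exceeded Dixon's 95% critical value. Chance meets this rule in about 1 in 20 groups of normally distributed values. Here the rule was applied to CPM, not log2 CPM, and to genes that share libraries, so that rate need not hold. Of 70 combinations of gene and group with 4 libraries, 8 met the rule, all on the high side.

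VFDM IFN 4 gave 4 of them, among them Fos at 17.7 CPM (1.37 to 3.09 in the other libraries of the group), Jun at 108 CPM (37.4 to 42.0) and Dusp1 at 31.8 CPM (10.8 to 13.7). Fosb in the same library, at 6.32 CPM (1.40 to 1.91), was the other one. Fosb in VFDM AZA 3 stood at 5.92 CPM, against 0.130 to 1.05 CPM in the rest of the group. Jun in VF AZA 1 stood at 102 CPM, against 11.0 to 17.9 CPM. Junb in VF COMBO 1 stood at 127 CPM, against 5.42 to 17.2 CPM. Egr1 in VFDM AZA 4 stood at 42.7 CPM, against 23.7 to 26.8 CPM.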

How the results depend on the processing

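Counts of immediate early genes called changed as follows, and the cause was not tested. In the joint test (0 called) DESeq2 gave 2, leaving out the libraries of fewer than 20000 detected rows gave 2, and leaving out 1 library gave 0 to 2. For VF COMBO against vehicle (1 called) no filter, the compared groups alone and leaving out the libraries of few detected rows, which leaves 1 VF COMBO library, each gave 0. The same comparison gave 0 without the VF vehicle libraries of over 15% small RNA, which leaves 1 vehicle library, and 0 to 1 without 1 library. For VFDM AZA against vehicle (0 called) the compared groups alone gave 1. For VFDM COMBO against vehicle (2 called) DESeq2 and leaving out the libraries of few detected rows gave 3 each, the compared groups alone 2 (Jun and Ier2), and leaving out 1 library 0 to 3. For VF COMBO against AZA (0 called) DESeq2 gave 1 and leaving out 1 library 0 to 1. For VFDM COMBO against IFN (0 called) DESeq2 gave 2, the compared groups alone 1, leaving out the libraries of few detected rows 2 and leaving out 1 library 0 to 1. For VFDM COMBO against AZA (1 called) DESeq2 gave 2, the compared groups alone 0 and leaving out 1 library 0 to 1. For the difference between genotypes in the response to COMBO (0 called), leaving out 1 library gave 0 to 1. With 1 VFDM COMBO or other library left out, the edgeR spread still comes from all groups. No called value changed sign in the alternatives run.

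With the replicate number as a block, VF COMBO against vehicle had 0 called and VFDM COMBO against vehicle 1 (Ier2), and no other of these counts changed. The numbers did not pair the libraries: of 105 same-numbered pairs 10 correlated above 0.1, and 7 of 31 libraries correlated best with their own number. The libraries with 0 Fos counts, VF AZA 3, VF COMBO 3 and VFDM AZA 3, held 31544083, 20586606 and 32209318 counts. Of these, VF AZA 3 and VF COMBO 3 also had 0 Fosb counts. There 3 counts would be 0.0956, 0.144 and 0.0911 CPM, below the medians of Fos (2.19 CPM) and Fosb (1.65 CPM). Their detected rows were few, at 17942, 17087 and 18843, but VFDM COMBO 3, with 18450, held the highest Fos level. The part of depth and of detected rows in these 0 counts was not tested.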
